A study of Mus musculus with 6 samples.

Results

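The miRNAs described here are the products of the miR-122, miR-192, miR-194, miR-193a and miR-193b hairpins that were listed in extracellular vesicles (EVs) shed by mouse hepatocytes. They were found by name, as every listed miRNA of these hairpins with either arm, which gave 8 of the 474 miRNAs in the tables: mmu-miR-122-5p, mmu-miR-192-5p, mmu-miR-194-5p, mmu-miR-194-2-3p, mmu-miR-193a-5p, mmu-miR-193a-3p, mmu-miR-193b-5p and mmu-miR-193b-3p. The vesicles came from primary hepatocytes of ApoE knockout mice, which develop high plasma cholesterol and atherosclerosis, and all 6 libraries share this genotype. The mice of the HFHC-EV group (3 libraries) received an HFHC diet, an abbreviation that the labels do not spell out, and those of the Chow-EV group (3 libraries) received chow. Replicates are called biological and numbered 1 to 3. The age and sex of the mice, the length of feeding, how many mice stood behind a library, and how the vesicles were separated from other particles are not stated in the labels, so the p-values below measure the spread between these libraries.

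A miRNA is cut from a hairpin precursor, whose 5p and 3p arms each give a mature product of about the same length, and it recognises target mRNAs mainly through its seed near the 5′ end. miR-122 is the dominant miRNA of hepatocytes and supports cholesterol and lipid synthesis in the liver. miR-192 and miR-194 are encoded side by side, are enriched in liver, kidney and gut, and are induced by p53 and by hepatocyte nuclear factors. miR-193a and miR-193b are related miRNAs that restrain growth in several cell types, and each lies near a copy of miR-365.

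The mature sequences are shown because they tell which listed miRNAs could be mistaken for each other and which share a seed. They were taken from RefSeq on GRCm38.p6, which held 7 of the 8 miRNAs, and the capitals mark the seed (bases 2 to 8).
miR-192-5p: cUGACCUAugaauugacagcc
miR-215-5p: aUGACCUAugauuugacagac
miR-194-5p: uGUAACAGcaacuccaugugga
miR-194-2-3p: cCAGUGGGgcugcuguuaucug
miR-193a-5p: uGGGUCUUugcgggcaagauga
miR-193b-5p: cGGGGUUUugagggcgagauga
miR-193a-3p: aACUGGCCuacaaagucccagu
miR-193b-3p: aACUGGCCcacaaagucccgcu
The 3p arms of miR-193a and miR-193b have the same seed and differ at 3 of 22 bases. Their 5p arms differ at 5 of 22 bases, which are U1C, U5G, C6U, C11A and A16G when counted from the 5′ end with the base of miR-193a-5p first, and 2 of these lie in the seed. miR-192-5p has the seed of miR-215-5p, from which it differs at 3 of 21 bases. The sequences of miR-194-5p and miR-194-2-3p were at least 8 edits from any other listed miRNA with a RefSeq sequence (348 sequences), and those of miR-193a-5p and miR-193b-5p were nearest to each other.

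Positions of the hairpins are given on GRCm38, the build named in the submitters' processing notes. Mir194-2 (chromosome 19, 6264643 to 6264728, plus strand) and Mir192 (chromosome 19, 6264844 to 6264932, plus strand) are separated by 115 bases and overlap no other annotated gene. Mir194-1 (chromosome 1, 185313319 to 185313385) lies in an intron of the antisense transcript 2010103J01Rik and, on the opposite strand, in an intron of Iars2, a mitochondrial tRNA synthetase gene, 195 bases before Mir215. miR-194-5p can come from either hairpin, while miR-194-2-3p belongs to Mir194-2. Mir193a (chromosome 11, 79711969 to 79712034) overlaps no other annotated gene and lies 14365 bases before Mir365-2. Mir193b (chromosome 16, 13449523 to 13449601) lies opposite an intron of the antisense gene Gm15738 and 4238 bases before Mir365-1. The hairpins of the miRNAs whose arms are compared below read as follows, with the mature arms in capitals.
Mir193a: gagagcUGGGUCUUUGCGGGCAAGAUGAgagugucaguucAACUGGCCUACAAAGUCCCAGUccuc
Mir193b: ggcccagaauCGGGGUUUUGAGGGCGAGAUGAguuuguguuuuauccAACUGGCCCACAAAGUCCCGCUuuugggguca
Mir194-2: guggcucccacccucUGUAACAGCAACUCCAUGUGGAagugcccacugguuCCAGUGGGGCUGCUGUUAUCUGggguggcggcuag

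Levels are in RPM as deposited, whose library total reached far beyond the listed miRNAs. One read was worth 0.0497 to 0.0523 RPM, so whole reads could be recovered, and the libraries held 27673 to 65775 miRNA reads. The summed miRNA level was 2683 ± 665 RPM in HFHC-EV and 1663 ± 371 RPM in Chow-EV (SD, n = 3 each). On the RPM scale the 104 miRNAs that averaged 1 RPM or more had a median log2 fold change of 0.51, higher in HFHC-EV. It was 0.07 after TMM scaling, which sets the bulk of the miRNAs equal between libraries. Libraries of the same replicate number resembled each other across diets, so each result is also set against a fit with the number as a block. In bulk vesicles, fewer vesicles that carry a miRNA and fewer copies per vesicle cannot be told apart.

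Across the diets, 2 of the 8 miRNAs were higher in HFHC-EV (miR-192-5p and miR-193a-5p) and 2 were lower (miR-193b-5p and miR-194-2-3p), in limma on log2(RPM + 1) at a Benjamini-Hochberg adjusted p under 0.05 over the 422 miRNAs with a read. The background was 14.2% of the 422 called higher and 5.21% called lower. Only miR-122-5p and miR-192-5p reached a mean of 1 RPM and entered the test over 104 miRNAs, where 24% were called higher and 4.81% lower in RPM, and 0.962% higher and 5.77% lower after TMM scaling; miR-192-5p was called higher in RPM, and neither of the 2 was called after TMM scaling. The values of the other 6 come from the fit over 422. The median log2 fold change of the 8 miRNAs was 0.05, against 0.04 over the 422. edgeR's quasi-likelihood test on recovered reads called 0 of the 8 without the block, where it called 0% of the 422 higher and 0.474% lower. With the block it called the same 4 in the same directions, against a background of 13% called higher and 11.8% lower. In limma, 4 of the 8 had an unadjusted p under 0.05, as had 20.9% of the 422 in the higher and 7.82% in the lower direction.

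**Figure D1:**
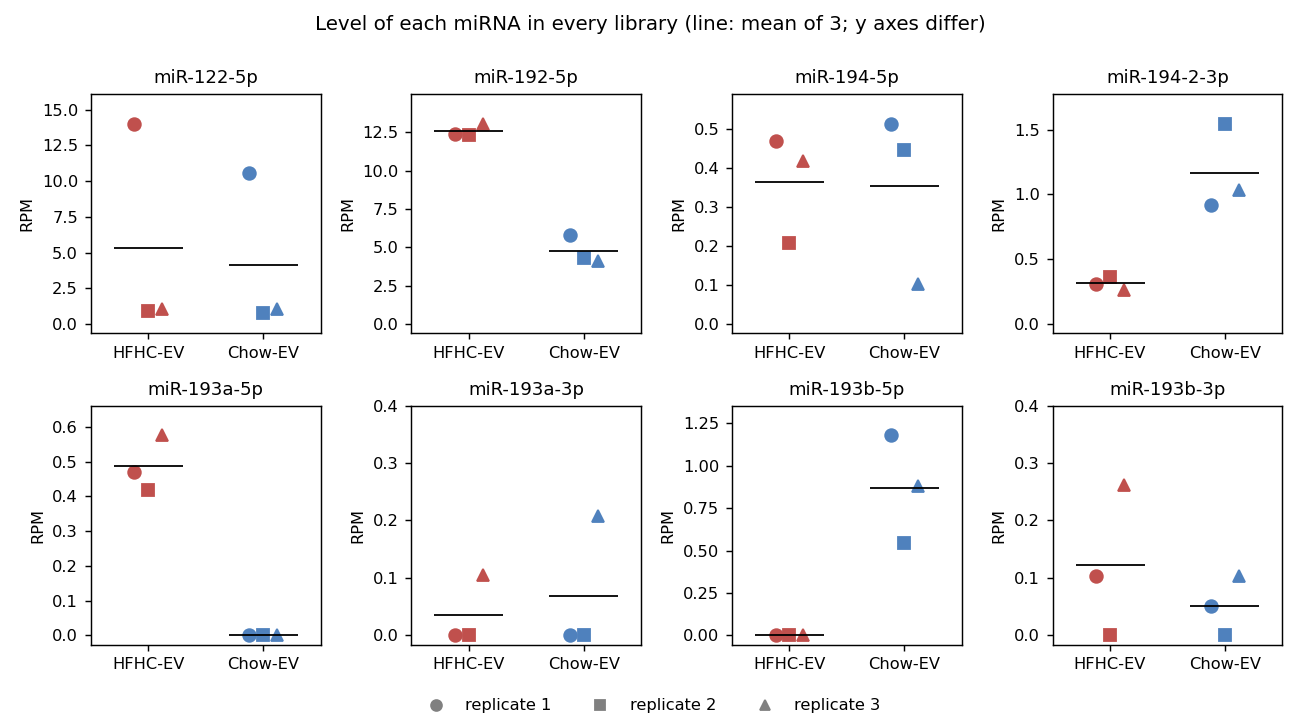
Level of each of the 8 miRNAs (RPM) in the 3 HFHC-EV and the 3 Chow-EV libraries, with the replicate number as the symbol and the mean as a line. The diets do not overlap for miR-192-5p, miR-194-2-3p, miR-193a-5p and miR-193b-5p, and miR-122-5p stands high in both libraries numbered 1.

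miR-122-5p differed between replicate numbers and not detectably between diets. It stood at 14.0, 0.938 and 1.05 RPM in HFHC-EV replicates 1, 2 and 3, against 10.5, 0.745 and 1.09 RPM in Chow-EV replicates 1, 2 and 3. Replicate 1 was thus 13.4 to 14.9 times the other HFHC-EV libraries and 9.71 to 14.2 times the other Chow-EV libraries, and the ranges of the diets overlapped. Within a number, the HFHC-EV library had 1.33, 1.26 and 0.963 times the level of its Chow-EV partner. The log2 fold change was 0.17 with a 95% interval of −2.76 to 3.09 (limma adjusted p = 0.933), and with the replicate block it had the same size and a limma adjusted p of 0.317. It was −0.23 after TMM scaling, and negative too without HFHC-EV replicate 1 (−0.80), without Chow-EV replicate 2 (−0.33) or without Chow-EV replicate 3 (−0.20). This spread does not show that the diets were alike. Its hairpin, Mir122, lies in an exon of the lincRNA AC157910.3 on chromosome 18 (65248861 to 65248926, GRCm38).

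For a miRNA that dominates hepatocytes, miR-122-5p was low in every library. By level it was the 30th, 96th and 124th listed miRNA in HFHC-EV replicates 1 to 3 and the 28th, 91st and 107th in Chow-EV replicates 1 to 3. Its share of miRNA reads was 0.581% in HFHC-EV replicate 1 (95% Clopper-Pearson bounds 0.514 and 0.655) and 0.0304% in the third HFHC-EV library (0.0186 and 0.0470), against 0.689% in Chow-EV replicate 1 (0.598 and 0.789) and 0.0522% in the third Chow-EV library (0.0323 and 0.0798). These bounds cover counting error only. miR-122-5p made up 50.4% of the reads of the 8 miRNAs in HFHC-EV replicate 1 and 6.57% and 6.67% in the other HFHC-EV libraries, against 55.5% in Chow-EV replicate 1 and 9.80% and 14.4% in the other Chow-EV libraries.

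Some markers of blood cells were, like miR-122-5p, high in replicate 1 of each diet. The erythroid miR-451a stood at 136, 9.90 and 9.73 RPM in HFHC-EV replicates 1 to 3, against 102, 1.64 and 1.76 RPM in Chow-EV replicates 1 to 3. By root mean square difference of log2(RPM + 1) over the 6 libraries, each profile centred on its mean, the miRNAs nearest to miR-122-5p among 94 others were miR-223-3p (0.537), a neutrophil and macrophage miRNA, and miR-486a-5p and miR-486b-5p (0.610 each), erythroid miRNAs that were listed with equal values; the median over the 94 was 1.42. miR-223-3p stood at 3.18, 0.261 and 0.314 RPM in HFHC-EV and at 3.12, 0.398 and 0.259 RPM in Chow-EV. It was high in replicate 1 of each diet. The leukocyte miR-155-5p was not: it stood at 0.574, 0.677 and 1.31 RPM in HFHC-EV replicates 1 to 3 and at 1.89, 1.24 and 2.64 RPM in Chow-EV replicates 1 to 3, highest in replicate 3 of each diet.

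In replicate 1, the sums over the whole marker lists were carried by the most abundant members. In HFHC-EV replicate 1, miR-451a gave 136 of the 148 RPM of the erythroid list, and miR-143-3p gave 3.13 of the 3.86 RPM of the mesenchymal list. Not every member was highest there. The epithelial miR-141-3p had reads in replicate 2 of each diet alone, and the mesenchymal miR-199a-3p was highest in replicate 3 in HFHC-EV and in replicate 1 in Chow-EV. The sums of the erythroid, leukocyte, endothelial, mesenchymal and epithelial lists were each highest in replicate 1 of each diet. So was the hepatocyte sum, but that list holds miR-122-5p itself, which gave 14.0 of its 27.3 RPM in HFHC-EV replicate 1. Its miR-192-5p stood at 12.4, 12.4 and 13.0 RPM in HFHC-EV replicates 1 to 3, and at 5.79, 4.32 and 4.14 RPM in Chow-EV replicates 1 to 3. The 5 of 6 erythroid markers that were listed summed to between 12.8 and 148 RPM in HFHC-EV and between 3.62 and 113 RPM in Chow-EV. The 5 of 6 leukocyte markers summed to 7.35 to 24.9 RPM and 7.06 to 22.5 RPM, with miR-142a-5p at 0 in HFHC-EV and at 1 read in Chow-EV. The endothelial markers (2 of 2) summed to 2.19 to 9.49 RPM in HFHC-EV and 0.497 to 5.94 RPM in Chow-EV, the mesenchymal markers (4 of 5) to 1.77 to 3.86 RPM and 0.103 to 1.84 RPM, and the epithelial markers (3 of 5) to 0.262 to 0.991 RPM and 0.155 to 1.74 RPM. The hepatocyte markers (5 of 7) summed to 13.5 to 27.3 RPM in HFHC-EV and 5.33 to 17.1 RPM in Chow-EV; of these, miR-802-5p had no read in HFHC-EV and 1 in Chow-EV, and miR-148a-3p had 8 reads in HFHC-EV and 5 in Chow-EV. The hepatocyte sum thus lay below the erythroid sum in replicate 1 of each diet and above it in the other libraries. In replicates 2 and 3 it was 13.5 and 14.5 against 13.1 and 12.8 RPM in HFHC-EV. The Chow-EV sums there were 5.62 and 5.33 against 4.72 and 3.62 RPM. The erythroid sum counts miR-486a-5p and miR-486b-5p separately, although they were listed with equal values. The part of other cells in these values was not tested.

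**Figure D2:**
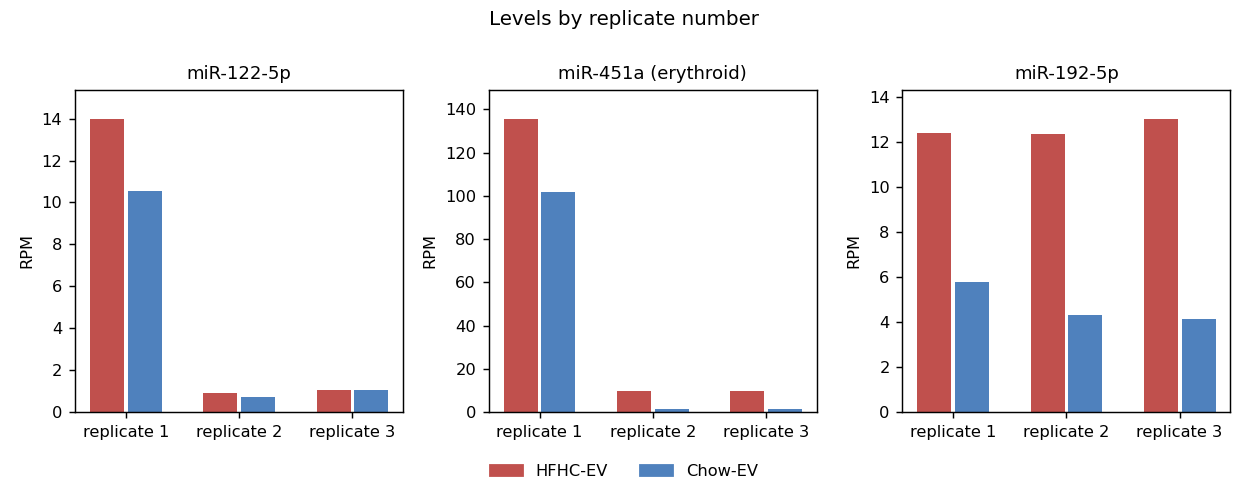
Levels of miR-122-5p, of the erythroid miR-451a and of miR-192-5p (RPM) in each library, grouped by replicate number, HFHC-EV to the left of Chow-EV. miR-122-5p and miR-451a are high in replicate 1 of each diet, while miR-192-5p is between 12.4 and 13.0 RPM in all HFHC-EV libraries and between 4.14 and 5.79 RPM in all Chow-EV libraries.

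miR-192-5p was higher in HFHC-EV in each pair of libraries with the same number. It stood at 12.4, 12.4 and 13.0 RPM in HFHC-EV replicates 1 to 3 (238, 237 and 249 reads), against 5.79, 4.32 and 4.14 RPM in Chow-EV replicates 1 to 3 (113, 87 and 80 reads). The groups did not overlap. Of all 422 miRNAs with a read, most of which averaged under 1 RPM, 23.2% had groups that did not overlap with HFHC-EV the higher. Its mean was 2.65 times that of Chow-EV, and HFHC-EV was 2.15, 2.86 and 3.15 times its partner in the pairs numbered 1, 2 and 3. This was a log2 fold change of 1.25 with an SE of 0.150 (limma adjusted p = 0.00375 over 104 miRNAs), and leaving out any 1 library gave limma adjusted p between 0.0102 and 0.0293.

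The size of the difference depended on the scale. As a share of miRNA reads, miR-192-5p took 0.516%, 0.561% and 0.379% in HFHC-EV replicates 1 to 3, against 0.378%, 0.314% and 0.199% in Chow-EV replicates 1 to 3; the lowest HFHC-EV share and the highest Chow-EV share lay within each other's counting intervals (0.333 to 0.429 and 0.311 to 0.454). The mean shares differed by 0.188 percentage points (exact 2-sided permutation p = 0.1, below which this design of 3 and 3 libraries cannot go). After TMM scaling the log2 fold change fell to 0.68 and was not called (limma adjusted p = 0.205). With TMM scaling and the replicate block it was called (limma adjusted p = 3.9e-04), as it was by edgeR on recovered reads with the block (log2 fold change 0.77, adjusted p = 0.00539) and not without it (adjusted p = 0.290). Over the 104 miRNAs, limma with TMM scaling and the block called 31 higher and 20 lower. The edgeR test with the block called 25 higher and 20 lower.

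The miRNAs whose profile lay nearest to that of miR-192-5p were miR-183-5p (root mean square difference 0.0948 over the 6 libraries), a sensory and epithelial miRNA, miR-1198-5p (0.108) and miR-185-5p (0.179), with a median of 0.637 over 94 miRNAs. miR-183-5p stood at 11.6, 10.9 and 10.1 RPM in HFHC-EV replicates 1 to 3, against 4.81, 4.03 and 3.93 RPM in Chow-EV replicates 1 to 3. Its HFHC-EV libraries were all above its Chow-EV libraries, and it was even across replicate numbers within a diet. miR-215-5p, which shares the seed of miR-192-5p, had no read in HFHC-EV and 1 read in Chow-EV.

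The products of the neighbouring miR-194 hairpin did not follow miR-192-5p. miR-194-2-3p, commonly regarded as the passenger arm, was lower in HFHC-EV, with 0.313, 0.365 and 0.262 RPM in replicates 1 to 3 (6, 7 and 5 reads), against 0.922, 1.54 and 1.04 RPM in Chow-EV replicates 1 to 3 (18, 31 and 20 reads). The groups did not overlap. Of all 422 miRNAs with a read, 7.82% had groups that did not overlap with HFHC-EV the lower. The mean was 3.72 times as high in Chow-EV, and HFHC-EV was the lower one in 3 of 3 pairs. HFHC-EV minus Chow-EV was −0.71 with an SE of 0.155 (limma adjusted p = 0.0295) on log2(RPM + 1), a scale that understates changes of low miRNAs. The call was lost when any 1 of the 6 libraries was left out (limma adjusted p between 0.0525 and 0.0726) and with TMM scaling (−0.97, adjusted p = 0.0508), and it was made with TMM scaling and the block (adjusted p = 0.0154).

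miR-194-5p, the functional arm in liver, showed no difference of this kind. It stood at 0.469, 0.208 and 0.419 RPM in HFHC-EV replicates 1 to 3 and at 0.512, 0.447 and 0.103 RPM in Chow-EV replicates 1 to 3, with 21 reads in each diet. The ranges overlapped, the log2 fold change was 0.02 (95% interval −0.40 to 0.44, limma adjusted p = 0.989), and its sign turned under TMM scaling (−0.18). Of the reads of miR-194-5p and miR-194-2-3p together, the 5p arm held 60.0%, 36.4% and 61.5% in HFHC-EV replicates 1 to 3, against 35.7%, 22.5% and 9.09% in Chow-EV replicates 1 to 3. The means were 52.6 ± 14.1% and 22.4 ± 13.3% (SD, n = 3 each; 2-sided exact permutation p = 0.1). The counts behind these shares are between 11 and 15 reads in an HFHC-EV library and between 22 and 40 in a Chow-EV library, and 5p reads can also come from Mir194-1.

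The balance within the Mir194-2 and Mir192 locus differed accordingly. For each read of miR-194-2-3p there were 39.7, 33.9 and 49.8 reads of miR-192-5p in HFHC-EV replicates 1 to 3, against 6.28, 2.81 and 4.0 in Chow-EV replicates 1 to 3. For each read of miR-194-5p there were 26.4, 59.3 and 31.1 reads of miR-192-5p in HFHC-EV and 11.3, 9.67 and 40.0 in Chow-EV. The first ratio separated the diets, which follows from the levels of miR-192-5p and miR-194-2-3p given above, neither of which overlapped between diets. The second ratio did not, and its miR-194-5p reads can also come from Mir194-1. Because each ratio is taken within a library, it does not depend on how libraries are scaled to each other.

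The 5p arms of the related miR-193a and miR-193b differed in opposite directions and were each found in the libraries of a single diet. miR-193a-5p, described as a tumour suppressor, stood at 0.469, 0.417 and 0.575 RPM in HFHC-EV replicates 1 to 3 (9, 8 and 11 reads), against no read in any Chow-EV library. The limit that a count of 0 allows was set at 3 reads over the group (0.0509 RPM in Chow-EV). The mean RPM of miR-193a-5p in HFHC-EV was 9.57 times that limit. For miR-193b-5p the HFHC-EV libraries held 0, 0 and 0 reads, against 1.18, 0.547 and 0.879 RPM in Chow-EV replicates 1 to 3 (23, 11 and 17 reads). Its mean RPM in Chow-EV was 16.6 times the limit for HFHC-EV (0.0522 RPM). Each of these ratios belongs to the RPM scale and leaves out the counting error of the diet with reads.

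In limma over the 422 miRNAs, the log2 fold change was 0.57 for miR-193a-5p (SE 0.0887, adjusted p = 0.0137) and −0.89 for miR-193b-5p (SE 0.156, adjusted p = 0.0153). After TMM scaling they were 0.47 and −1.04, with an adjusted p of 0.0353 for each. These sizes depend on the pseudocount of 1 RPM. With 0.1 and 10 RPM instead, they were 2.54 and 0.07 for miR-193a-5p, and −3.22 and −0.12 for miR-193b-5p. Both were called each time. DESeq2 on recovered reads called each of them (adjusted p = 0.00347 and 3.5e-05), and edgeR did so with the block (adjusted p = 0.00559 and 2.4e-09) and not without it (adjusted p = 0.0656 and 0.0558). For miR-193a-5p, leaving out Chow-EV replicate 2 ended the limma call (adjusted p = 0.0505). For miR-193b-5p, leaving out HFHC-EV replicate 2 or HFHC-EV replicate 3 did so (adjusted p = 0.0524 and 0.0505), although its reads lie in Chow-EV.

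Reads in a single diet were found for many low miRNAs. Counting from a single read, 18.7% of the 422 miRNAs had reads in HFHC-EV and none in Chow-EV, and 12.6% had reads in Chow-EV and none in HFHC-EV. By mean level, miR-193a-5p ranked 4 of the 79 miRNAs read in HFHC-EV alone, and miR-193b-5p ranked 3 of the 53 read in Chow-EV alone. How reads were assigned between the names miR-193a-5p and miR-193b-5p, which differ at the 5 bases given above, is not stated, and whether the assignment differed between libraries was not tested.

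The 3p arms of miR-193a and miR-193b, which carry the shared seed, were at the limit of detection in each diet. miR-193a-3p had 0, 0 and 2 reads in HFHC-EV replicates 1 to 3, against 0, 0 and 4 in Chow-EV replicates 1 to 3. miR-193b-3p had 2, 0 and 5 reads in HFHC-EV, against 1, 0 and 2 in Chow-EV. Their log2 fold changes were −0.04 and 0.09 (limma adjusted p = 0.85 and 0.60), and a difference was not detectable at this depth. The 5p arm held all 9 and all 8 reads of miR-193a in HFHC-EV replicates 1 and 2 and 84.6% of 13 reads in replicate 3 (95% interval 54.6 to 98.1), against 0 of 4 reads in Chow-EV replicate 3. For miR-193b it held 0 of 2 and 0 of 5 reads in HFHC-EV replicates 1 and 3, against 95.8% of 24, all of 11 and 89.5% of 19 reads in Chow-EV replicates 1 to 3. Several libraries have fewer than 10 reads of these hairpins, so their arm balance was not tested.

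**Figure D3:**
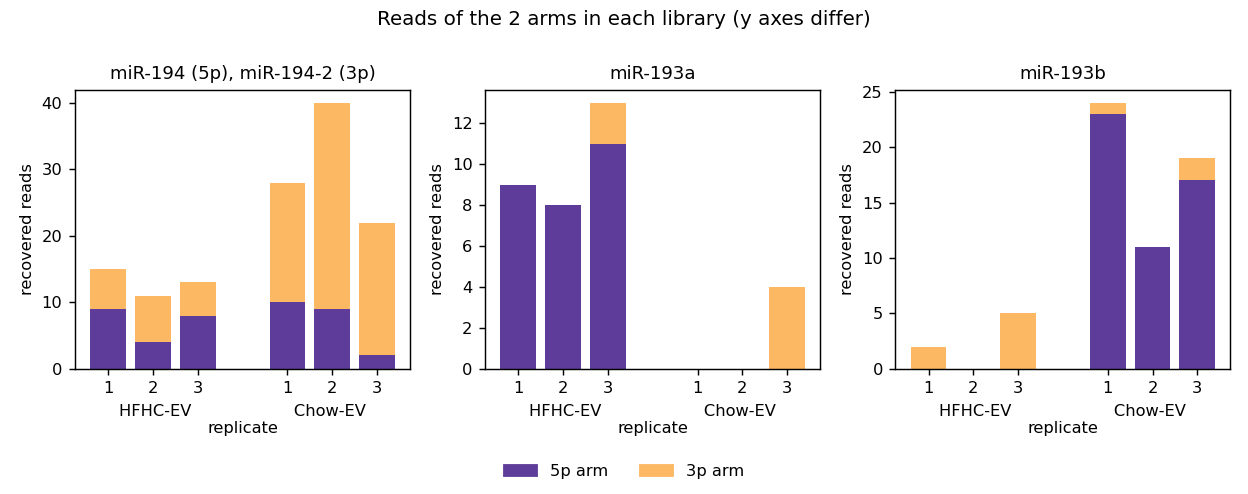
Recovered reads of the 5p and 3p arms of miR-194, miR-193a and miR-193b in each library, HFHC-EV to the left of Chow-EV. miR-193a-5p has 8 to 11 reads in HFHC-EV and 0 in Chow-EV, miR-193b-5p has 0 in HFHC-EV and 11 to 23 in Chow-EV, and miR-194-2-3p has 5 to 7 in HFHC-EV and 18 to 31 in Chow-EV.

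Over the listed markers of erythroid, leukocyte, endothelial, mesenchymal, epithelial and hepatocyte cells, limma in RPM called miR-192-5p alone, and miR-155-5p and miR-143-3p had an unadjusted p under 0.05. After TMM scaling limma called the leukocyte miR-155-5p lower (adjusted p = 0.0352), and with the replicate block in RPM it also called miR-155-5p lower and miR-146a-5p, miR-126a-3p and miR-143-3p higher, in a fit that called 22.3% of the 422 miRNAs higher and 6.4% lower. The part of these markers' cells in the 4 called miRNAs was not tested. miR-193a-5p had 9, 8 and 11 reads in HFHC-EV while the erythroid sum there was 148, 13.1 and 12.8 RPM. miR-193b-5p had 23, 11 and 17 reads in Chow-EV while that sum was 113, 4.72 and 3.62 RPM.

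The cluster partners of the miR-193 hairpins were not called without the block. miR-365-2-5p, from the hairpin next to Mir193a, stood at 4.33, 3.65 and 3.24 RPM in HFHC-EV replicates 1 to 3, against 2.66, 1.94 and 2.54 RPM in Chow-EV replicates 1 to 3 (log2 fold change 0.49, limma adjusted p = 0.0775 over 104 miRNAs; 0.01 after TMM scaling). miR-365-1-5p, from the hairpin next to Mir193b, had no read. miR-365-3p, which either hairpin can give, had 2 reads in HFHC-EV and 11 in Chow-EV (log2 fold change −0.20, limma adjusted p = 0.0863). Of miR-215-5p, miR-365-2-5p and miR-365-3p, the seed or cluster partners with reads, limma called 0 (the last 2 had an unadjusted p under 0.05), edgeR and DESeq2 called 0, and limma with the block called miR-365-3p lower.

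A further list held 12 other miRNAs found in liver, not all of them particular to it. Of these, 9 had reads and limma called 0 (2 at an unadjusted p under 0.05, miR-455-5p and miR-26a-5p). edgeR called 0, and DESeq2 called miR-26a-5p higher, where it called 12.4% of the 307 miRNAs it tested higher and 10.4% lower. The median log2 fold change of the 9 was 0.32, against 0.04 over all 422, most of which lie under 1 RPM, where this scale understates changes. Among miRNAs averaging 1 RPM or more, it was 1.105 for 3 of these 9 (miR-26a-5p, miR-22-3p and miR-21a-5p) and 0.51 for all 104. These medians were not tested. miR-26a-5p, which acts on the cell cycle and on hepatic metabolism, averaged 69.1 ± 24.0 RPM in HFHC-EV and 31.3 ± 9.63 RPM in Chow-EV (limma adjusted p = 0.0600 over 104 miRNAs). miR-455-5p stood at 0.418 ± 0.0912 RPM and 0.0863 ± 0.149 RPM (SD, n = 3 each; adjusted p = 0.107). With the replicate block, limma called 4 of the 9 higher: miR-455-5p, miR-26a-5p, miR-22-3p and miR-21a-5p. Of these, 3 averaged over 1 RPM, where the block fit called 69 of 104 miRNAs higher, so this count says nothing particular to them. With TMM scaling and the block it called miR-26a-5p and miR-21a-5p higher, against 14.2% of the 422 called higher and 10.9% lower.

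**Figure D4:**
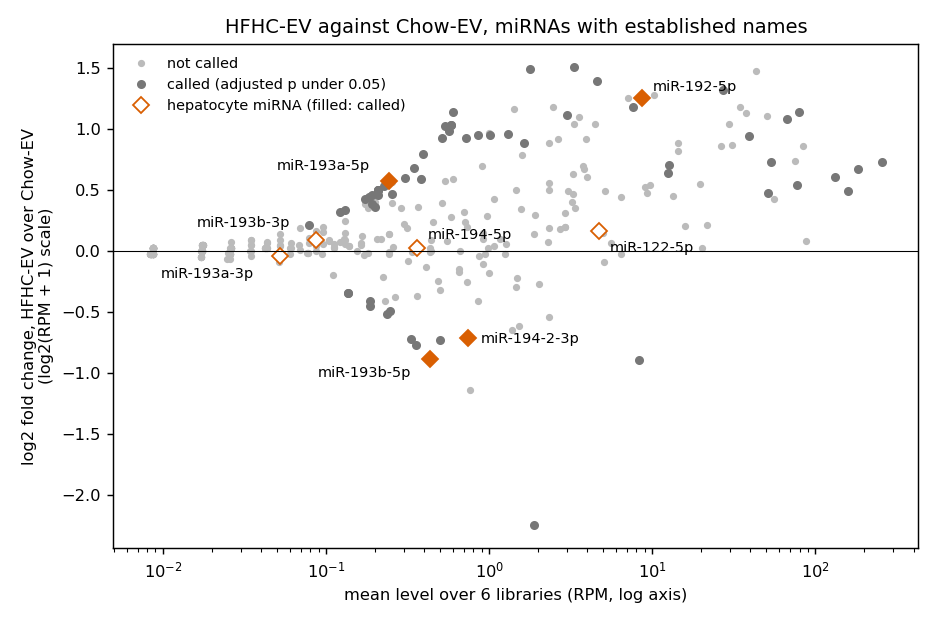
Log2 fold change of HFHC-EV over Chow-EV on the log2(RPM + 1) scale against the mean level (RPM, log axis) for the 365 miRNAs with established names and at least 1 read, with the 8 hepatocyte miRNAs as diamonds and calls from limma over the 422 miRNAs with a read. miR-192-5p (1.25) and miR-193a-5p (0.57) lie above 0 among the called miRNAs, and miR-194-2-3p (−0.71) and miR-193b-5p (−0.89) lie below.

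TMM scaling lowered the log2 fold change of each of the 4 called miRNAs, by unequal amounts. From RPM to TMM scaling, miR-192-5p changed from 1.25 to 0.68 and miR-193a-5p from 0.57 to 0.47, while miR-194-2-3p changed from −0.71 to −0.97 and miR-193b-5p from −0.89 to −1.04. None of these 4 changed direction under TMM, RLE or scaling to the listed miRNA reads. Relative to the bulk of miRNAs, miR-193a-5p was called higher against a background of 4.5% and miR-193b-5p lower against one of 4.03%.

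**Figure D5:**
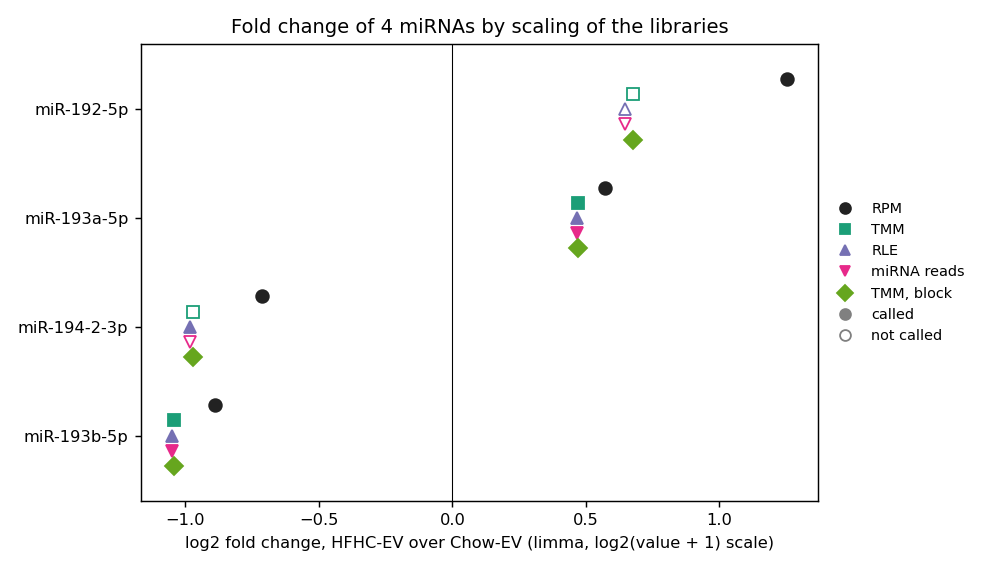
Log2 fold change of HFHC-EV over Chow-EV (limma, log2(value + 1)) for the 4 miRNAs called in RPM, under 4 scalings of the libraries and with TMM scaling and the replicate block; filled symbols are called. miR-193a-5p and miR-193b-5p are called throughout, and miR-192-5p is called in RPM (1.25) and with TMM and the block (0.68).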

How the data were processed

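Per the labels' protocols, RNA was isolated from the vesicles by kit, and size-selected small RNA was ligated to adaptors on either end, reverse transcribed and amplified. The deposited values are RPM, made by the authors; per the submitters' processing notes Bowtie2 and GRCm38.p6 were used. The miRNA annotation, trimming, the RPM denominator and the treatment of reads that match several miRNAs are stated neither there nor in the labels, and reads carry no molecular identifiers.

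Whole reads were recovered from the RPM step of each library (100% of values within 0.1 of a read). Diets were compared by limma-trend (version 3.58.1, R 4.3.3) on log2(RPM + 1), with diet as the only term, among miRNAs averaging 1 RPM or more; miRNAs below that were taken from the same fit over all miRNAs with a read. Alternatives were other pseudocounts, filters and scalings, edgeR 4.0.16 and DESeq2 1.42.0 on recovered reads, the replicate block and leaving out libraries; leaving out both libraries of a number was added after seeing the data. limma was tested on simulated data with independent libraries, which lack the likeness between libraries of the same number seen here. Every listed product of the named hairpins is named, with the 3 nearest profiles for those above 1 RPM. The miRNAs and lists were chosen with earlier results of these data known.

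No label says what a replicate number shares. Deviations from the diet means correlated at 0.945, 0.894 and 0.946 for libraries that share a number, and the range for all other pairs was −0.819 to 0.0265. The deviations of the 3 libraries of a diet sum to 0, so high values for shared numbers push the other pairs below 0 by construction. The numbers were taken to pair the libraries. Hairpin positions are from GENCODE M21. Permutation tests used scipy 1.17.1 on Python 3.11.15.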

Additional observations from a re-analysis of the deposited data

How the results depend on the processing

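On the RPM scale, limma called 25 of 104 miRNAs higher and 5 lower in HFHC-EV. The higher count was 1 with TMM, 2 with RLE, 1 with scaling to listed miRNA reads, 1 with edgeR, 7 with DESeq2, 69 with the replicate block, 60 without the filter, and 13 to 32 when 1 library was left out. The lower count was 12 with DESeq2, 8 with the replicate block, 20 with TMM and the block, 20 with edgeR and the block, 22 without the filter, 3 with a mean of at least 2.5 RPM, and 4 whichever library was left out. Without both libraries numbered 1, 2 or 3, a choice made after seeing the data, the higher count was 0, 0 and 40, and the lower count was 0, 1 and 4.

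Of the 8 hepatocyte miRNAs, 2 were called higher and 2 lower. The higher count was 1 with TMM, RLE, scaling to listed miRNA reads, DESeq2 and filters of 1 or 2.5 RPM, 0 with edgeR, 0 to 2 with 1 library left out (0 without Chow-EV replicate 2), and 0 without both libraries numbered 1 or 2. The lower count was 1 with TMM and with scaling to listed miRNA reads, 0 with edgeR and with filters of 1 or 2.5 RPM, 0 to 1 with 1 library left out, and 0 without both libraries of any number. With the replicate block, in limma in RPM, limma after TMM or edgeR, 2 were called higher and 2 lower.

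For miR-192-5p the log2 fold change was not called with TMM (0.68), RLE (0.64), scaling to listed miRNA reads (0.65), edgeR (0.74), DESeq2 (0.71), or without both libraries numbered 1 (1.39) or 2 (1.22), and it was called without both libraries numbered 3 (1.155) and with 1 library left out (1.18 to 1.38). For miR-194-2-3p it was not called with TMM (−0.97), scaling to listed miRNA reads (−0.98), edgeR (−2.61), or without both libraries numbered 1 (−0.79), 2 (−0.62) or 3 (−0.72), and it was −0.79 to −0.59 with 1 library left out. For miR-193a-5p it was not called by edgeR (5.94) or without both libraries numbered 1 (0.58) or 2 (0.61), and it was 0.53 to 0.61 with 1 library left out. For miR-193b-5p it was not called by edgeR (−7.52) or without both libraries numbered 1 (−0.77), 2 (−1.02) or 3 (−0.88), and it was −1.02 to −0.77 with 1 library left out. The edgeR values of these last 2 rest on groups without reads and are no bounds. With a pseudocount of 0.1 or 10 RPM, miR-194-2-3p was called at −1.59 and −0.11. Leaving libraries out leaves fewer samples; the cause of the other changes was not tested.

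The sign of miR-122-5p turned with TMM (−0.23, also with the block), RLE (−0.25), scaling to listed miRNA reads (−0.25), edgeR (−0.22, and −0.32 with the block) and DESeq2 (−0.27), and its log2 fold change was −0.80 to 1.03 with 1 library left out. That of miR-194-5p turned with TMM (−0.18, also with the block), RLE (−0.19), scaling to listed miRNA reads (−0.19), edgeR (−0.79, and −0.62 with the block), DESeq2 (−0.59) and without both libraries numbered 3 (−0.15; 0.161 without those numbered 2), and was −0.12 to 0.11 with 1 library left out. That of miR-193a-3p was −0.0905 to 0.048 with 1 library left out. As a share of miRNA reads, HFHC-EV minus Chow-EV was −0.229 to 0.165 percentage points for miR-122-5p, −0.00396 to 0.00101 for miR-193a-3p and −0.000604 to 0.0032 for miR-193b-3p with 1 library left out. In RPM the same difference was 1.20 for miR-122-5p and 0.0113 for miR-194-5p, opposite in sign to the difference in shares. The 6 miRNAs under 1 RPM rest on at most 69 reads per diet, and 3 libraries a diet limit every comparison.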
